A study of Mus musculus with 8 samples.

Results

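The genes described here are 10 genes of bone mineralization, chosen by name from the 31053 genes of the mouse matrix: Spp1, Ibsp, Dmp1, Mepe, Bglap, Bglap2, Alpl, Phex, Enpp1 and Ank. They were measured by 10X single-cell RNA sequencing in tibial cells of untreated mice at P56 (8 weeks), which all carried MMP14 F/+ and COL10A1cre, together with the reporters R26-tdT and Col1a1-2.3-GFP. The mice thus have 1 floxed Mmp14 allele, and the Cre, driven from Col10a1, can delete it and turns tdTomato on in hypertrophic chondrocytes (HCs) and in whatever descends from them. A 2.3 kb fragment of the Col1a1 promoter drives GFP in osteoblasts. The labelled tissue is trabecular bone with part of the growth plate, digested in steps to remove most blood. Cells of 3 mice were pooled, and the barcodes of the 8 labelled samples, which form 1 group, carry no mark of sample or mouse, so that there are no replicates and differences are given with counting intervals only, without tests.

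Bone mineral is hydroxyapatite laid into a collagen I scaffold, and its growth depends on the balance of phosphate, which feeds it, and pyrophosphate, which blocks it. Tissue-nonspecific alkaline phosphatase, encoded by Alpl, removes pyrophosphate, whereas Enpp1 makes it outside the cell and Ank carries it or its source out of the cell. The acidic SIBLING proteins (small integrin-binding ligand, N-linked glycoproteins), among them osteopontin (Spp1), bone sialoprotein (Ibsp), Dmp1 and Mepe, bind mineral and integrins, osteocalcin (Bglap, Bglap2) is the abundant small protein of mature osteoblasts, and Phex is a membrane endopeptidase of osteoblasts and osteocytes that is lost in X-linked hypophosphatemia.

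The pool held 12564 barcodes and 91463572 unique molecular identifiers (UMIs, each counting 1 captured transcript), of which 4472 barcodes had at least 1600 genes. Raw marker gates picked 547 of these: growth plate (243 cells, Col2a1 of at least 10 and Prg4 of at most 1 UMI), hypertrophic (79, Col10a1 and Ihh summing to at least 5), articular (197, Prg4 and Cilp summing to at least 2 with Acan), Col1a1 (125, at least 20 Col1a1 UMIs), stroma (23, Cxcl12 of at least 20 with Lepr and Adipoq summing to at least 2) and fibroblast (164, Dcn and Col3a1 of at least 3 each). The labels call the cells chondro-osteogenic, yet 73.5% of the 4472 barcodes held a UMI of Ptprc, the blood cell marker CD45. The 3193 of them that met no gate served as the comparison group in which most of these genes should be silent. Gate cells had a median depth of 13965 UMIs and the Ptprc cells one of 9792. Levels are in CPM, the UMIs of a gene summed over a group's cells and scaled to 1000000 UMIs of that group, with exact Poisson 95% intervals for levels, exact conditional intervals for ratios and Clopper-Pearson intervals for shares of cells. These cover counting error only and not the variation between cells or mice.

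The gates overlapped, and 234 of the 547 cells met more than 1. Of the 125 cells of the Col1a1 gate, only 27 met no other gate, whereas 89 also met the fibroblast gate, 40 the articular gate and 15 the growth plate gate. Osteoblast markers (Col1a2, Sp7, Runx2, Ifitm5, Col22a1, Smpd3, Car3, Cgref1) separated these parts. In the 27 Col1a1-only cells and in the 15 cells shared with the growth plate gate, 8 of 8 markers were seen in at least 25% of cells, against 2 of 8 in the 43 cells that met the Col1a1 and fibroblast gates and in the 39 that met those and the articular gate. Of the 5 articular markers that no gate uses (Cytl1, Erg, Cilp2, Clu, Creb5), the last 2 sets held 3 and 4 at that frequency and the Col1a1-only cells 0. The Col1a1 gate is therefore called by its rule, and values are given for the exact combinations of gates as well, a grouping added after the values were seen. Blood transcripts were present too: neutrophil markers summed to 28730 CPM in the Col1a1-only cells, 9 of which held a Ptprc UMI, 25860.5 in the articular-only and 19958 in the growth plate and Col1a1 cells, against 132595 in the Ptprc cells and 6416 in the growth plate-only cells. Erythroid markers summed to 51326 CPM in the 8 growth plate and Col1a1 cells, 36266 in the fibroblast-only, 31841 in the stroma-only and 29651 in the articular, Col1a1 and fibroblast cells, against 21562 in the Ptprc and 10345 in the Col1a1-only cells. The part of these transcripts in the results was not tested.

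The 4 SIBLING genes lie in a row on the plus strand of chromosome 5, within a 270.3 kb stretch that starts with Dspp (mm10 coordinates, GENCODE M21): Dmp1 at chr5:104202613-104214102, Ibsp at chr5:104299171-104311469, Mepe at chr5:104325329-104338611 and Spp1 at chr5:104435118-104441050. The osteocalcin genes Bglap3, Bglap2 (chr3:88377736-88378699) and Bglap (chr3:88383501-88384464) lie within 15.8 kb on the minus strand of chromosome 3. Alpl (chr4:137741733-137796384), Phex (chrX:157162075-157415312), Enpp1 (chr10:24637914-24712159) and Ank (chr15:27466677-27594909) lie apart. RefSeq promoter sequences of the same assembly (GRCm38.p6) were found for 9 of the 10 genes, with 12 start sites, and not for Bglap2. The 120 bases before the start are shown for the 4 SIBLING neighbours of 1 cluster and for Bglap, the most abundant member of the Col1a1 gate. Capitals mark ATTGG, which reads CCAAT on the other strand, and 2 TATA-like motifs, which are TTTAAA and, read on either strand, TTTATA or its complement TATAAA.
Spp1, first start, chr5:104434991-104435110, plus: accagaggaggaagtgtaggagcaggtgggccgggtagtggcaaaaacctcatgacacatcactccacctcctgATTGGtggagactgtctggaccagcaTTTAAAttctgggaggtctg
Ibsp, chr5:104299167-104299286, plus: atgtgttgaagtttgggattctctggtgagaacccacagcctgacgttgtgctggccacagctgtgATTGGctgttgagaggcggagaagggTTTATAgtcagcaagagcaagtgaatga
Dmp1, second start, chr5:104202497-104202616, plus: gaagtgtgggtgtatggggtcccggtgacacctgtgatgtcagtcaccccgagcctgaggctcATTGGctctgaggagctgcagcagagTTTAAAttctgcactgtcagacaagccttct
Mepe, chr5:104325209-104325328, plus: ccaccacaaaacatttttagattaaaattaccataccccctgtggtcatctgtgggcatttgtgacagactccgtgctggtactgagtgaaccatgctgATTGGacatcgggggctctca
Bglap, chr3:88384467-88384586, minus: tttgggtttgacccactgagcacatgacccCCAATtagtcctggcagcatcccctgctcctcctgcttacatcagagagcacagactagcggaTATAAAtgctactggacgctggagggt

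The ATTGG motif began 46 bases before the first Spp1 start, 54 before Ibsp, 57 before the second Dmp1 start, 21 before Mepe and 90 before Bglap. A TATA-like motif began 20 bases before the start in Spp1, 28 in Ibsp, 31 in Dmp1 and 27 in Bglap, each at the start shown, and the Mepe window held none. The other Dmp1 start, which is not shown, held ATTGG at 101 bases and no TATA-like motif. The first motif was in the windows of 6 of the 12 starts, for 5 of the 9 genes, and in those of 21.3% of all 32851 promoters. The motif TTTAAA was in 3 of the 12 and in 5.2% of all promoters, and the other TATA-like motif in 2 of the 12 and in 6.34%. Of all promoters, 2.34% held either of them together with ATTGG. The second Spp1 start and the promoters of Alpl, Enpp1 and Ank held none of these, and that of Phex held the TTTAAA motif. The RUNX motif AACCACA, present in 2.11% of all promoters on either strand, was in none of the 12. These matches are descriptions of the letters only.

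Spp1, which anchors cells and osteoclasts to mineral, stood at 3184 CPM in the hypertrophic gate, 2856 in the articular, 2791 in the Col1a1, 2624 in the stroma, 2596 in the fibroblast and 1231 in the growth plate gate, against 95.1 in Ptprc cells. The articular and Col1a1 gates had overlapping counting intervals and both lay above the fibroblast gate, while the interval of the 23 stroma cells overlapped all 3. Ibsp, which nucleates hydroxyapatite, was highest in the hypertrophic gate at 5581 CPM and next in the fibroblast gate at 4952. The latter level came from cells shared with other gates, since the 25 fibroblast-only cells stood at 150.003 CPM, with 39 Ibsp UMIs in 3 cells. Ibsp stood at 4239 in the Col1a1 gate and 4163 in the articular gate, again with overlapping intervals, at 2430 in the growth plate and 1745 in the stroma gate, and at only 4.2 in Ptprc cells (95% interval 3.59 to 4.89).

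**Figure D1:**
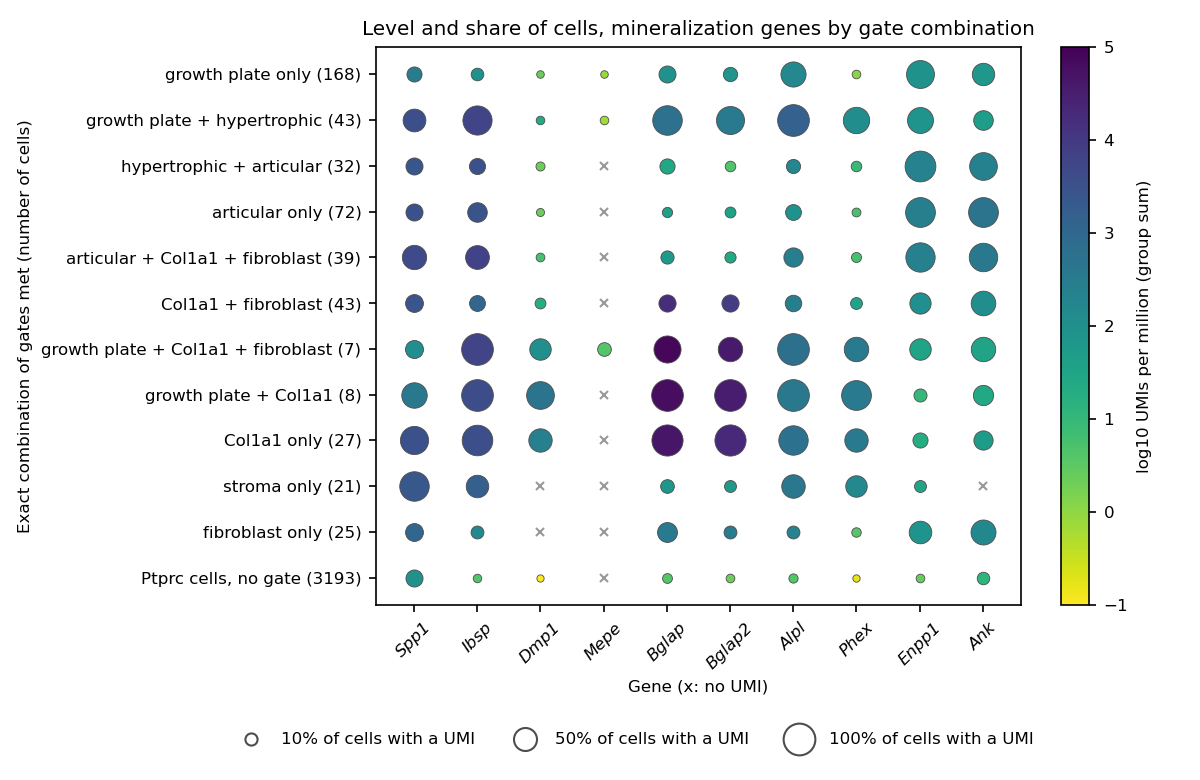
Level (colour, log10 of CPM) and share of cells with at least 1 UMI (circle area) of the 10 genes in 11 exact combinations of gates and in Ptprc cells outside the gates. Bglap and Bglap2 are darkest in the 3 bottom Col1a1 combinations, Ibsp is lighter in the growth plate-only and fibroblast-only cells than in the other 9 combinations, and Enpp1 and Ank have their largest circles in the articular combinations.

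Within the growth plate gate, both genes were higher in the cells that also met the hypertrophic gate of Col10a1 and Ihh. Spp1 stood at 335 CPM in the 168 growth plate-only cells and at 3613 in the 43 cells that met the growth plate and hypertrophic gates, a 10.8-fold difference (10.1 to 11.5), with 33.7% of the latter UMIs in 1 cell. Ibsp went from 97.5 to 6369 CPM between the same groups, 65.3-fold (58.5 to 73.1), and was seen in 19 of 168 and 36 of 43 cells. In the first group 50.8% of the Ibsp UMIs lay in 1 cell, in the second 9.35%. The second group was deeper, with a median of 32457 UMIs per cell against 17351.5. Thinned to 3000 UMIs per cell, Ibsp was seen in 5.8% and 74.5% of cells. The 32 cells that met the hypertrophic and articular gates differed from these: Spp1 was seen in 8 of them, at 2431 CPM with 56.9% of the UMIs in 1 cell, and Ibsp in 7, at 3172 CPM with 93.2% in 1 cell.

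A cell-by-cell view showed that these sums rest on some cells and not on all. In the Ptprc cells Spp1 was seen in 25.1% of cells, Ibsp in 2.13%, Alpl in 3.48%, Enpp1 in 2.44%, Ank in 11.1%, Phex in 0.219% and Dmp1 in 0.0626%, the background against which shares are read. For Spp1, the shares in growth plate-only (18.5%) and articular-only cells (25%) did not exceed it, so that a single Spp1 UMI says nothing there and the sums come from the few cells with many. In the 72 articular-only cells, whose Spp1 sum of 3217 CPM is as high as that of the Col1a1-only cells (3247), Spp1 was seen in 18 cells and 9 held at least 10 UMIs. Their median was 0, and their highest cell stood at 56825 CPM. Ibsp was seen in 25 of the 72, at a sum of 2964 CPM, and 27.2% of its UMIs came from 1 cell. In the 43 cells of the Col1a1 and fibroblast gates 96.5% of the Spp1 UMIs lay in 1 cell, so that their sum of 2700 CPM describes that cell. In contrast, Ibsp was seen in 25 of 27 Col1a1-only cells (92.6%, 75.7% to 99.1%) with a median of 2698 CPM, and its top cell held 12% of the UMIs.

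**Figure D2:**
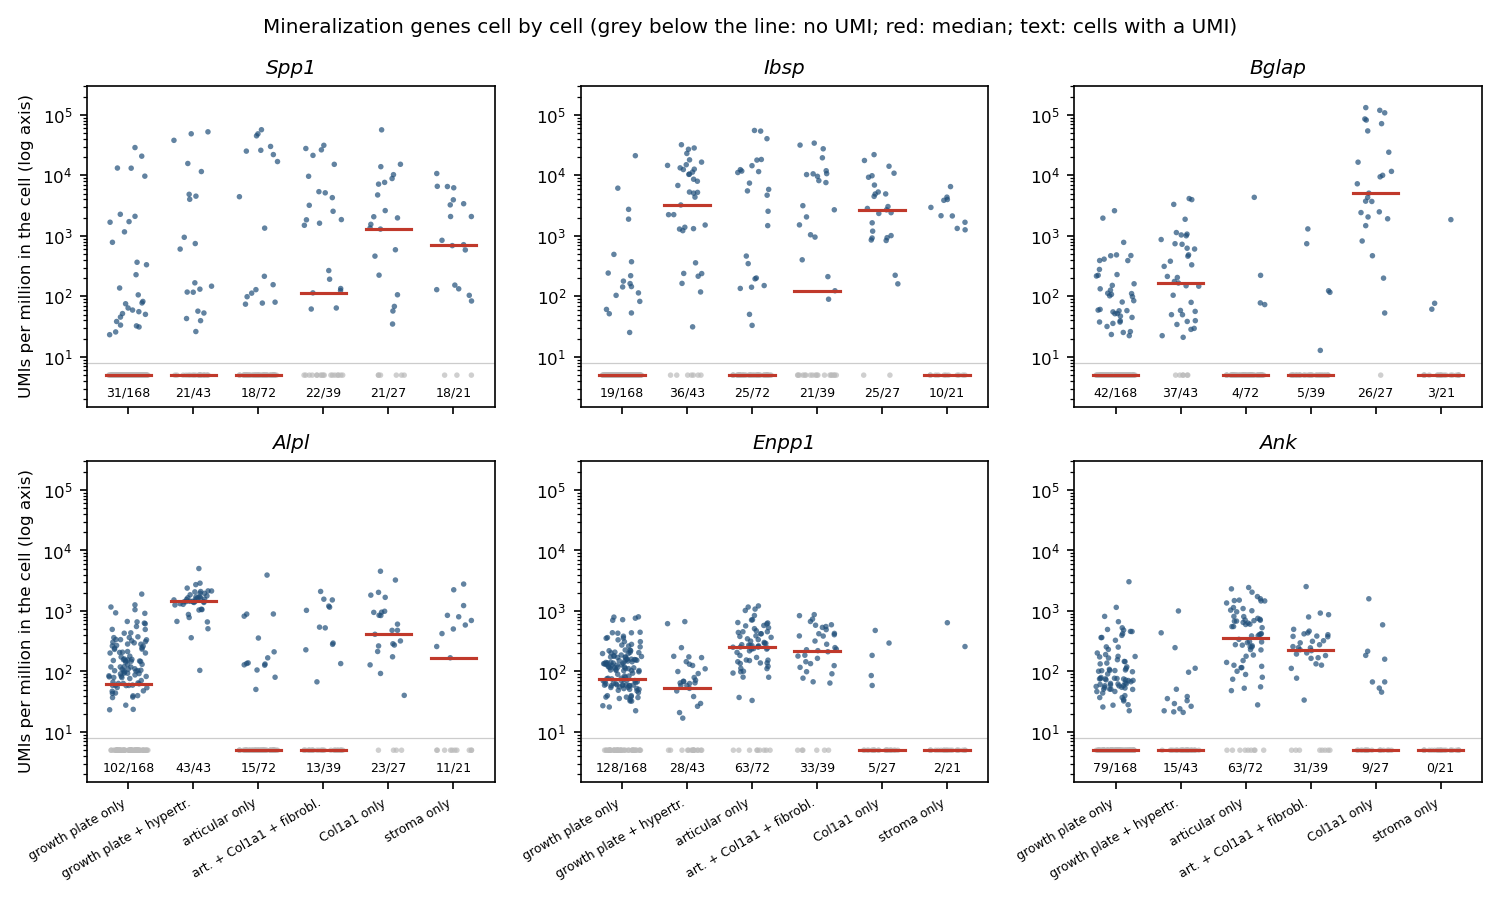
CPM in each cell (log axis) for Spp1, Ibsp, Bglap, Alpl, Enpp1 and Ank in 6 exact combinations of gates. Grey points below the line are cells with no UMI, red bars are medians and the text gives cells with a UMI of all cells: Bglap is seen in 26 of 27 Col1a1-only cells and 4 of 72 articular-only cells, Alpl in all 43 growth plate and hypertrophic cells, and Enpp1 and Ank each in 63 of 72 articular-only cells.

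Dmp1, the matrix phosphoprotein of osteocytes and late osteoblasts, was rare and narrow. Its level was 134 CPM in the Col1a1 gate (118 to 151), 30.2 in the growth plate gate, 17.7 in the hypertrophic and in the fibroblast gate, 2.15 in the articular gate and 0.0509 in Ptprc cells. Of the 35 UMIs of the hypertrophic gate, 34 lay in 1 cell, the only cell with Dmp1 among the 43 of the growth plate and hypertrophic gates. It was not seen in the 23 stroma cells, where 3 counts would be 14.1 CPM. The 134 CPM of the Col1a1 gate was 9.5-fold above that, a value that rests in part on the single cell described below. Dmp1 was seen in 14 of 27 Col1a1-only cells, in 6 of the 8 cells of the growth plate and Col1a1 gates and in 3 of the 7 that also met the fibroblast gate. Of its 328 UMIs in all barcodes, 79.6% lay in the Col1a1 gate, 29.1% of that gate's UMIs in a single cell, without which the gate stood at 96 CPM (82.7 to 111). Mepe, an osteocyte SIBLING, was close to absent: 6 UMIs in 4 barcodes, 1 of them in the Col1a1 gate, which allows no comparison.

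The single cell with the most Dmp1 UMIs, called the Phex-rich cell, had 76 Dmp1 and 124 Phex UMIs of 21597 in all. It also held 213 Ibsp and 81 Bglap UMIs, 23 of GFP and 1 of Sost, the osteocyte-secreted Wnt inhibitor, but no Spp1, Alpl, Enpp1 or Ank UMI. The osteocyte hormone Fgf23 was at 0 in every gate, as were Dspp and Ahsg, and Sost had 1 UMI in the whole Col1a1 gate.

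Osteocalcin was by far the most restricted of the abundant members. Bglap stood at 32067 CPM in the Col1a1 gate and Bglap2 at 15806, 7869.5-fold and 7053-fold above their 4.07 and 2.24 in Ptprc cells. The size depends on the reference: the log2 ratio of Bglap, 12.94, was 5.92 against all cells with a Ptprc UMI and 5.08 against barcodes under 700 UMIs. The first of these references includes 21 cells of the Col1a1 gate itself, so those cells stand on both sides. The Col1a1 gate held 95.7% of all Bglap UMIs in the pool. The fibroblast gate followed at 12440 and the growth plate gate at 5880, but gates overlap here, since 15 cells that met both the growth plate and Col1a1 gates supplied 12396 and 19571 of the 33289 Bglap UMIs of the growth plate gate. The 168 growth plate-only cells stood at 99 CPM and the 25 fibroblast-only cells at 350. The hypertrophic gate had 453, the stroma gate 75.2 and the articular gate 40.9 CPM, the last 2 with overlapping intervals.

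In the Col1a1-only cells Bglap ranged from 0 to 131773 CPM, with a median of 5085 and an upper quartile of 39229.5. It was seen in 26 of 27 (96.3%, 81% to 99.9%), against 4.73% of Ptprc cells, where no cell held more than 4 UMIs. The 43 growth plate and hypertrophic cells also held Bglap in 37 cells, at 614 CPM and a highest cell of 4140, which was 6.2-fold above the growth plate-only cells (5.46 to 7.05) and 74.7-fold below the Col1a1-only cells (69.9 to 80).

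The 2 osteocalcin genes moved together. Bglap gave 2.03 UMIs for each Bglap2 UMI in the Col1a1 gate (2 to 2.06), 1.92 in the growth plate gate and 1.82 in Ptprc cells (1.39 to 2.39), and over the 125 cells of the Col1a1 gate their Pearson r was 0.98. The ratio was lower in the growth plate-only cells, at 1.3 (1.1 to 1.54). The genes are near-identical neighbours, so how reads were split between them is uncertain, and summing them with Bglap3 left the ratio to Ptprc cells at 12.88 on the log2 scale, against 12.94 for Bglap alone. Bglap3 itself had 156 UMIs in the Col1a1 gate, 80.1 CPM, and 0.0509 CPM in Ptprc cells.

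The ratio of Ibsp to Bglap UMIs differed between the groups. Per Bglap UMI there were 0.0807 Ibsp UMIs in the Col1a1-only cells (0.0768 to 0.0846), 10.4 in the growth plate and hypertrophic cells, 22.6 in the stroma-only cells and 72 in the articular-only cells (52.1 to 102). In the Ptprc cells the ratio was 1.03 (0.825 to 1.29). The ratios of the articular and the blood cells thus differed beyond counting error. Bglap had 37 UMIs in the articular-only cells, 31 of them in 1 cell, and its share of 5.56% (1.53% to 13.6%) was at the background of the Ptprc cells. Cells with both genes were common: of the 56 Bglap cells of the Col1a1 gate 49 also held Ibsp (Pearson r of 0.46 over 125 cells, but 0.02 over the 27 Col1a1-only cells), and of the 37 in the growth plate and hypertrophic cells 30 did (−0.38 over 43 cells).

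**Figure D3:**
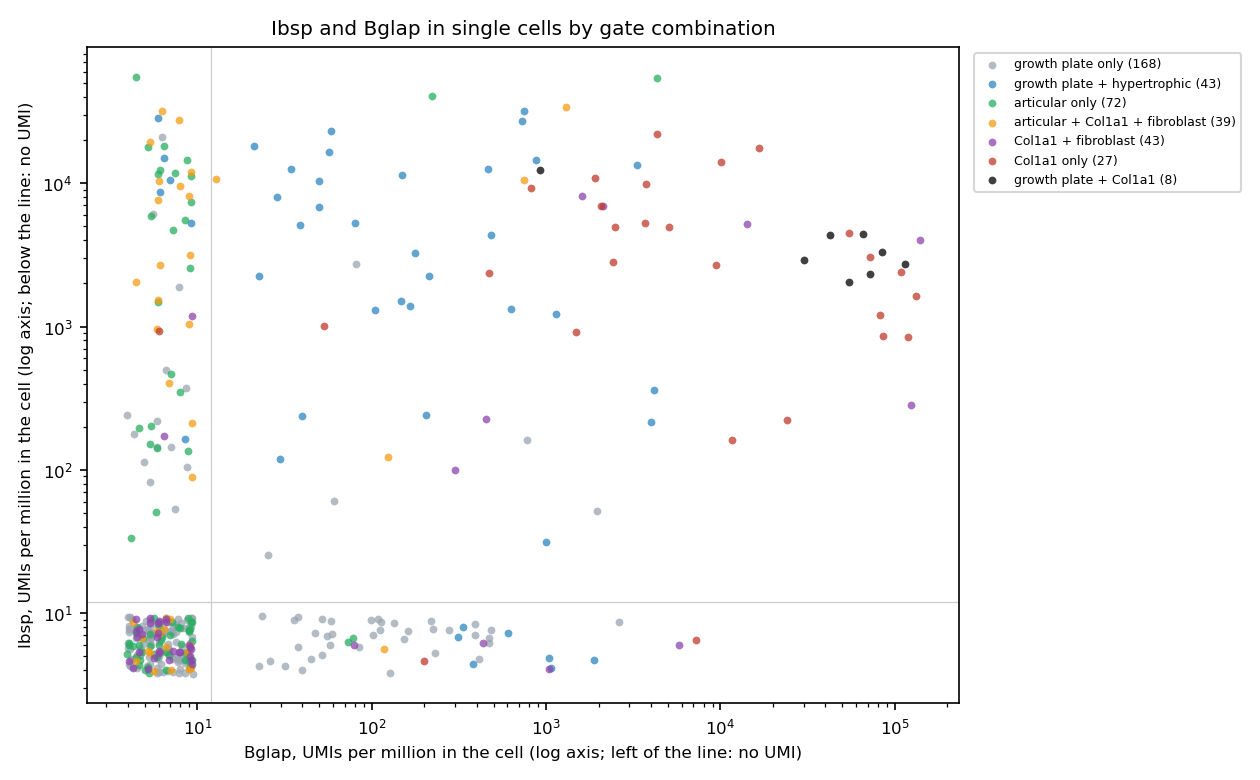
Ibsp against Bglap in single cells, in CPM on log axes, coloured by exact combination of gates; points beyond the grey lines have no UMI of that gene. Growth plate and hypertrophic cells (43) spread over Ibsp with Bglap up to 4140, and their r is −0.38. Articular cells reach high Ibsp mostly with no Bglap. The right edge is held by cells of 3 combinations: Col1a1-only (27), growth plate and Col1a1 (8), and some of the Col1a1 and fibroblast cells (43). The 7 cells that met the growth plate, Col1a1 and fibroblast gates are not drawn.

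Alpl, the alkaline phosphatase, was highest in the hypertrophic gate. It stood at 1094 CPM in the hypertrophic gate, 519 in the growth plate, 416 in the Col1a1, 414 in the stroma, 310 in the fibroblast and 174 in the articular gate, against 4 in Ptprc cells. The Col1a1 gate lay above the fibroblast gate, and the interval of the stroma gate overlapped both. Of the 2159 Alpl UMIs of the hypertrophic gate, 2076 lay in its growth plate cells. The 32 hypertrophic and articular cells held it in 5, at 180 CPM with 88.9% of the UMIs in 1 cell. The 5 articular markers that no gate uses summed to 33380 CPM in these 32 and to 752 in the growth plate and hypertrophic cells. Alpl was seen in 43 of 43 growth plate and hypertrophic cells at 1444 CPM, 9.51-fold above the growth plate-only cells (8.63 to 10.5) and 2.66-fold above the Col1a1-only cells, which stood at 542 and held it in 23 of 27 cells. No single cell held more than 3.9% of the UMIs of the growth plate and hypertrophic cells, so that this is the most evenly spread of the members there.

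Phex, the endopeptidase, was seen in both the growth plate and hypertrophic and the Col1a1 cells. It stood at 175 CPM in the Col1a1 gate (157 to 195), 141 in the stroma, 85.6 in the hypertrophic, 57.2 in the growth plate, 49 in the fibroblast and 6.1 in the articular gate, with 7 UMIs in 3193 Ptprc cells. The Phex-rich cell held 36.4% of the Phex UMIs of the Col1a1 gate, and without it the gate stood at 113 CPM (98.2 to 129), below the stroma gate with overlapping intervals. In the growth plate and hypertrophic cells it was seen in 29 of 43 at 115 CPM, against 4 of 168 growth plate-only cells at 1.19. The sum in the Col1a1-only cells, 349 CPM, rests to 73.8% on the single cell described above and was 95.7 without it, though 14 of the 27 held a UMI. In the 8 growth plate and Col1a1 cells 7 held Phex, at 350 CPM, with 24.6% in the top cell. Among the 21 stroma-only cells 9 held it, at 148 CPM (99.2 to 213).

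The pyrophosphate genes were highest in articular cells. Enpp1, which makes pyrophosphate, was highest in the articular gate at 243 CPM, then at 173 in the fibroblast, 123 in the hypertrophic, 110 in the Col1a1, 87.1 in the growth plate and 37.6 in the stroma gate, against 2.5 in Ptprc cells. Ank, which exports it, stood at 364 in the articular, 249 in the fibroblast, 160 in the Col1a1, 106 in the hypertrophic and 60.4 in the growth plate gate, at 12.3 in Ptprc cells and at 0 in the 23 stroma cells. The 72 articular-only cells held Enpp1 at 278 and Ank at 513 CPM, each in 63 cells (87.5%, 77.6% to 94.1%). The 27 Col1a1-only cells held Enpp1 at 20.8 in 5 cells and Ank at 51.9 in 9 cells, 13.4-fold and 9.87-fold lower. The Enpp1 and Ank of the Col1a1 gate came mostly from cells that also met the articular and fibroblast gates, which held 142 of its 214 Enpp1 and 215 of its 312 Ank UMIs.

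The ratio of the transporter to the phosphatase changed widely between these cells. UMIs count transcripts by their 3' ends without regard to length, so only the change of a ratio from group to group is read. There were 5.42 Ank UMIs per Alpl UMI in the articular-only cells (4.3 to 6.92), 1.39 in the articular, Col1a1 and fibroblast cells, 0.438 in the growth plate-only cells, 0.0958 in the Col1a1-only cells and 0.0342 in the growth plate and hypertrophic cells (0.0266 to 0.0433). In the Col1a1 gate, over 125 cells, Enpp1 and Ank had an r of 0.49 with each other, Bglap had −0.41 with Ank and −0.38 with Enpp1, Ibsp had 0.75 with Alpl, and Dmp1 had 0.67 with Phex, or 0.56 without the Phex-rich cell. These correlations share the depth and the mixture of the cells and are descriptions. In the 27 Col1a1-only cells alone, Ibsp and Alpl had 0.59 and Dmp1 and Phex 0.68, or 0.69 and 0.33 without that cell, while Bglap had −0.12 with Ank and 0.07 with Enpp1.

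Counted against all genes, 9 of the 10 members had at least 50 UMIs summed over the groups compared (Mepe did not). All 9 were at least 4-fold higher in the Col1a1 gate than in Ptprc cells, where 10.3% of the 11747 genes tested were. Against the growth plate gate 3 of 9 were (Dmp1, Bglap, Bglap2) with 3.46% of genes, against the hypertrophic gate the same 3 with 4.77%, against the articular gate 4 (Phex added) with 2.2%, against the stroma gate 4 (Dmp1, Bglap, Bglap2, Ank) with 5.29% and against the fibroblast gate 1 (Dmp1) with 0.0699%. Without the Phex-rich cell Dmp1 was 3.18-fold above the growth plate gate, which left 2 of 9 there, and with each cell weighing the same 1 of 9 was left. Dmp1 and Ank had no UMI in the stroma gate. They were tested there only through their UMIs in the Col1a1 gate and called against an assumed 3 counts, so these 2 calls carry little weight. The gates share cells, so these counts compare overlapping groups.

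Without shared cells, the Col1a1-only cells were at least 4-fold above the growth plate-only cells for 6 of 9 members (Spp1, Ibsp, Dmp1, Bglap, Bglap2, Phex), with 2.79% of genes. The median log2 ratio of the 9 members tested was 5.24, against −0.23 for all genes. Above the growth plate and hypertrophic cells they were so for 3 of 9 (Dmp1, Bglap, Bglap2; 3.73%), with a median of 0.07. Above articular-only cells it was 5 of 9 (Dmp1, Bglap, Bglap2, Alpl, Phex; 2.97%), above stroma-only cells 3 of 7 tested (Dmp1, Bglap, Bglap2; 4.94%), and above fibroblast-only cells 5 of 8 (Ibsp, Dmp1, Bglap, Bglap2, Phex; 4.56%). The growth plate and hypertrophic cells exceeded the growth plate-only cells 4-fold in 6 of 8 members tested (Spp1, Ibsp, Bglap, Bglap2, Alpl, Phex; 1.55%), leaving Enpp1 and Ank. The articular-only cells did so in 3 of 7 (Spp1, Ibsp, Ank; 2.8%). The floor of 50 UMIs applies to the sum of both groups, for all genes alike, so a gene can pass it through the higher group alone. Against growth plate-only cells Dmp1 (121 and 8 UMIs) and Phex (168 and 4) did so. The other counts hold such members too, among them Dmp1 against stroma-only and fibroblast-only cells, which held none of it. For such members the call follows in part from the floor. Without the Phex-rich cell the Col1a1-only counts became 5 of 8 against growth plate-only, 3 of 7 against articular-only, 2 of 6 against stroma-only and 3 of 6 against fibroblast-only cells, since Dmp1, Phex or both fell under 50 UMIs there. The folds of the calls lost this way stayed above 4 where both groups held UMIs: Phex had 80.7 against growth plate-only, 17.2 against articular-only and 24.9 against fibroblast-only cells, and Dmp1 had 44 against articular-only cells. Against the growth plate and hypertrophic cells Dmp1 was then 4.14-fold higher, and the Dmp1 of those lay in 1 cell.

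Inside the hypertrophic gate the members split with Col10a1. The 39 cells above the median Col10a1 level had Ibsp at 9231 CPM and the other 40 at 937, a log2 ratio of 3.30 (3.20 to 3.40). Spp1 (2.52), Alpl (1.67) and Phex (3.80, with 26 and 5 cells) were also higher in the first group, whereas Ank (−0.93, −1.35 to −0.52) and Bglap2 (−0.87, −1.13 to −0.61) were lower and the interval of Bglap (−0.14, −0.33 to 0.05) and of Enpp1 (−0.32, −0.70 to 0.05) held 0. Dmp1 had 34 and 1 UMIs, each in 1 cell. The cells above the median were deeper, at 28070 against 17468 UMIs. Of the 79 cells, 43 met the growth plate and 35 the articular gate, and this mixture was not separated from the Col10a1 level.

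The series asks whether osteogenic cells that descend from HCs resemble those that do not. The study reports a broad similarity, with Ibsp among a small set of genes higher in the HC-derived osteoblasts. Its osteogenic cells were clusters that combined P56 with a neonatal sample, a set unlike the Col1a1 gate used here. Cells of HC descent were called by more than 14 UMIs of WPRE, an element at the end of the tdTomato transcript. In the Col1a1 gate these were 18 of 125 cells, 14 of them Col1a1-only and 4 in the growth plate and Col1a1 combination, with 0 of the 43 cells of the Col1a1 and fibroblast gates and 0 of the 39 that also met the articular gate. The split is therefore also one between parts of the gate, and between median depths of 20688 and 9957 UMIs. Since the Cre that marks these cells can also delete the floxed Mmp14 allele, descent and that deletion cannot be told apart. Bglap stood at 58511 CPM in the WPRE cells and 25482 in the rest, a log2 ratio of 1.20 (1.18 to 1.22), and Bglap2 had 1.18. These were 2 of 9 members at least 2-fold higher, with 3.92% of genes. Over the alternatives given below, the ratio of Bglap ran from 1.22 to 3.50 and that of Bglap2 from 1.15 to 3.46. Enpp1 (−3.71, −5.60 to −2.33, 4 and 210 UMIs) and Ank (−3.07, −4.21 to −2.12) were the 2 of 9 at least 2-fold lower, with 17.4% of genes.

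Summed over all cells of the gate, the other members differed less along this split. Ibsp (−0.57) and Spp1 (−0.29) were lower and Dmp1 (0.70, 0.29 to 1.09) higher in WPRE cells, and the intervals of Alpl (−0.08) and Phex (0.10) held 0. Cell by cell, Ibsp, Spp1 and Alpl were more common in the deeper WPRE cells. Ibsp was seen in 18 of 18 WPRE cells and 53 of the other 107, with medians of 2631 and 0 CPM. Spp1 was seen in 14 and 49 cells, with medians of 378 and 0, and 27.6% of its UMIs in the rest lay in 1 cell. Alpl was seen in 18 and 44, with medians of 306 and 0. Without the Phex-rich cell, which was not a WPRE cell, Phex was at 0.98 (0.55 to 1.39) and Dmp1 at 1.43 (0.99 to 1.87), so that Dmp1 was then 2.7-fold higher and 3 of 9 members were at least 2-fold higher. Among the 27 Col1a1-only cells, 14 against 13, Bglap had a log2 ratio of 1.26, or 2.81 without the top cell of each side, and Ibsp one of −0.65. Alpl (−0.81, −1.17 to −0.45) and Ank (−1.91, −3.33 to −0.62) were lower in the WPRE cells, at −0.98 and −1.27 without the top cell of each side. Ank had only 8 and 17 UMIs there, in 4 and 5 cells, with 58.8% of the 17 in 1 cell. Phex was at −2.60 there, at 1.65 without the Phex-rich cell and at 1.13 without the top cell of each side. Dmp1 was at −2.24, at 0.45 (−0.54 to 1.54) without the Phex-rich cell and at −0.31 without the top cell of each side, so that no direction can be read for it. Without the top cells Spp1 went from −0.36 to 0.43. Enpp1 had only 4 and 6 UMIs in this comparison, with an interval from −3.67 to 0.67.

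**Figure D4:**
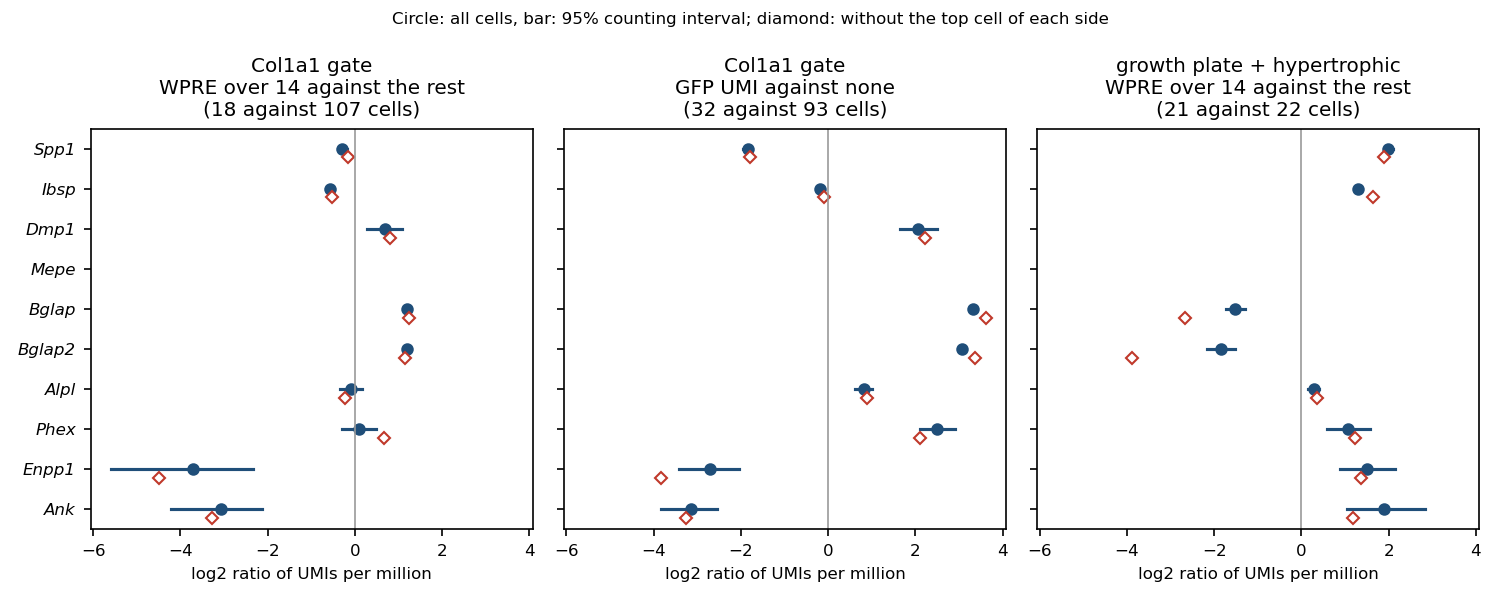
Log2 ratios of CPM for each gene, with 95% counting intervals (circles and bars) and without the cell that holds most UMIs of the gene on each side (diamonds), for WPRE over 14 and for GFP in the Col1a1 gate and for WPRE over 14 in the growth plate and hypertrophic cells. Enpp1 and Ank lie left of 0 in both Col1a1 panels, and Spp1 and Ibsp lie right of 0 in the growth plate and hypertrophic cells.

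A GFP UMI, the osteoblast reporter, was seen in 32 cells of the Col1a1 gate and not in 93, at median depths of 21580 and 9497. Summed over cells, the GFP cells were higher in Bglap (log2 ratio 3.32), Phex (2.50, or 1.67 without the Phex-rich cell), Dmp1 (2.06, or 1.39 without it) and Alpl (0.81), nearly level in Ibsp (−0.18), and lower in Spp1 (−1.84), Enpp1 (−2.70) and Ank (−3.15). Cell by cell, Ibsp was seen in 30 of the 32 and 41 of the 93, with medians of 2875 and 0 CPM. Spp1 was seen in 20 and 43, with medians of 62.9 and 0, and 27.5% of its UMIs in the 93 lay in 1 cell. Among the 27 Col1a1-only cells, 19 of them with GFP, Bglap (4.95) and Spp1 (−2.41) kept the directions of their summed ratios, whereas Alpl was lower in the GFP cells (−1.21, −1.60 to −0.82). Dmp1 was at 0.69 there (−0.15 to 1.64) and at −0.99 (−1.96 to 0.07) without the Phex-rich cell, so that its direction was not kept. Phex was at 3.42, and at 1.49 without that cell, with an interval of −0.16 to 3.82 that held 0.

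In the growth plate and hypertrophic cells, 21 of 43 had more than 14 WPRE UMIs, with similar depth (34106 and 31348). There Spp1 was at 5777 CPM in the WPRE cells and 1447 in the rest (log2 ratio 2.00), Ibsp at 9046 and 3689 (1.29) and seen in 21 of 21 and 15 of 22 cells. Bglap was lower in WPRE cells (−1.51, or −2.67 without the top cells), and Alpl was nearly even (0.29, 0.16 to 0.42). Enpp1 (1.502, 0.89 to 2.15) and Ank (1.90, 1.06 to 2.83) were higher in WPRE cells, the latter with 64.3% of its WPRE-cell UMIs in 1 cell. Bglap2 was lower like Bglap (−1.84). The directions of the summed ratios of Spp1, Ibsp, Bglap, Bglap2, Enpp1 and Ank were opposite to those in the Col1a1 gate, differences that could not be tested in 1 pool. By share of cells, Ibsp and Spp1 were more common in WPRE cells in both. In the 32 hypertrophic and articular cells, 21 with WPRE and 11 without at depths of 13772 and 11732, Ibsp was lower in the WPRE cells (−6.65, or −3.84 without the top cells) with a UMI in 4 and 3 cells, and Spp1 went from −1.52 to 5.14 without the top cells.

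Outside the gates, the members were seen at low levels in blood cells. Spp1 was seen in 520 of 1195 neutrophil-gate cells (43.5%) at 148 CPM and in 120 of 806 B cells (14.9%) at 37.4. Thinned to 3000 UMIs, the shares were 23.1% and 6.13%. The 23 cells of the osteoclast gate (Acp5, Ctsk and Atp6v0d2 summing to at least 20) held Spp1 in 17 at 803 CPM, whereas 40 endothelial cells held none, which allows up to 8.63 CPM. Levels of Spp1 thus differed between blood types beyond counting error. Bglap, by contrast, stood at 3.61 in neutrophils, 4.65 in B cells and 6.45 in erythroid cells, with overlapping intervals for neighbours. Ibsp stood at 1.47, 4.32 and 1.7, and 61.5% of the B cell UMIs came from 1 cell.

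**Figure D5:**
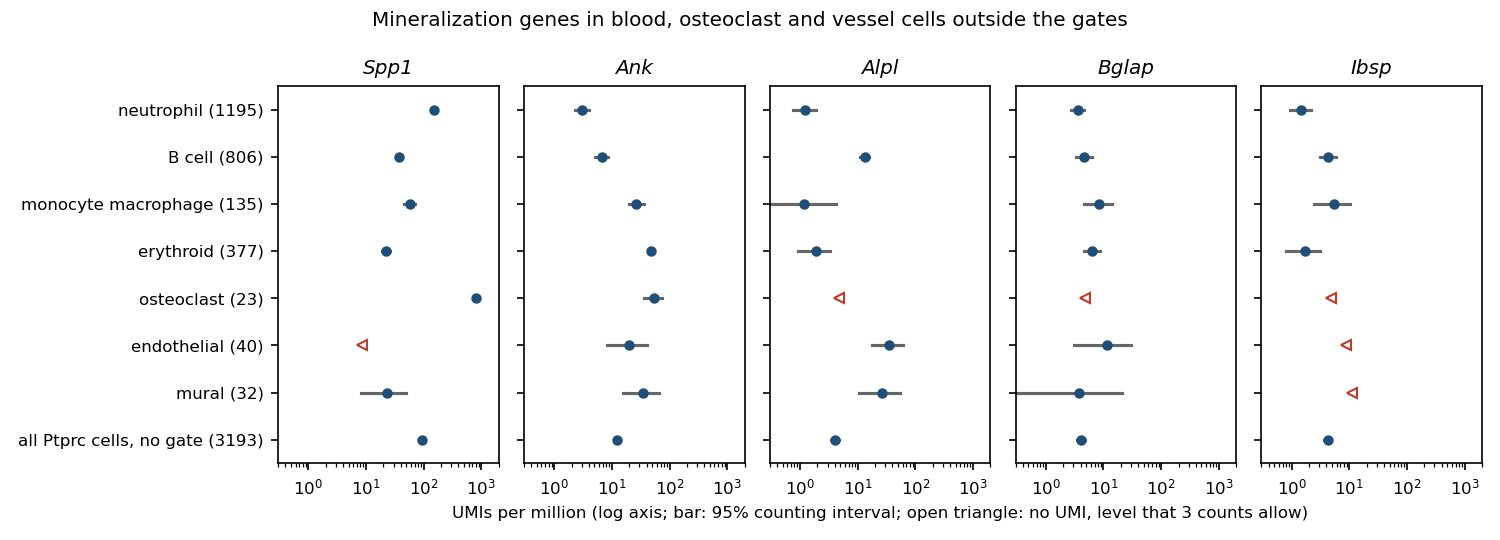
CPM (log axis) of Spp1, Ank, Alpl, Bglap and Ibsp in blood, osteoclast and vessel cells that met no skeletal gate, with 95% counting intervals; open triangles mark groups with no UMI, at the level that 3 counts would give. Spp1 is highest in osteoclast-gate cells (803), Ank in osteoclast-gate (52.8) and erythroid cells (48.3), and Alpl in endothelial cells (34.5).

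Ank reached erythroid cells, in 189 of 377 at 48.3 CPM, and osteoclast-gate cells, in 15 of 23 at 52.8, whereas neutrophils stood at 3.06. Alpl was seen in 89 of 806 B cells at 13.4 CPM (11.1 to 16) against 1.22 in neutrophils (0.746 to 1.89), and at 34.5 in endothelial and 26.5 in mural cells, each in 3 cells. Ibsp, Bglap, Dmp1, Phex and Alpl had no UMI in the osteoclast-gate cells, where 3 counts would be 4.8 CPM. Outside the gates and the gene floor, the 278 barcodes under 700 UMIs held Bglap at 948 CPM, in 13 barcodes with 33.8% of the UMIs in 1, and had a median of 22% mitochondrial UMIs.

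Of 39 other mineralization genes listed by name, 31 could be tested against Ptprc cells. Leaving out Col1a1, which defines the gate, 18 of 30 were at least 4-fold higher in the Col1a1 gate, beside the 10.3% of all genes. Among those with at least 100 UMIs there, Smpd3, the sphingomyelinase of matrix vesicles, stood at 895 CPM in the hypertrophic, 623 in the growth plate, 214 in the Col1a1, 108 in the fibroblast, 102 in the articular and 4.7 in the stroma gate. Ifitm5, an osteoblast membrane protein, stood at 383 CPM in the Col1a1 gate, 627 in the Col1a1-only cells and 0 in growth plate-only cells. Mgp, the matrix inhibitor of calcification, went the other way, at 14538 in the articular-only, 7310 in the growth plate-only and 8.31 in the Col1a1-only cells. Nt5e, which turns AMP to adenosine, stood at 580 in the articular-only and 35.3 in the Col1a1-only cells, and the phosphate transporter Slc20a1 at 798 and 35.3. Phospho1, a matrix vesicle phosphatase, had 2 UMIs in the Col1a1 gate and is named, like Sost, Fgf23, Dspp and Ahsg, after its values were seen. Sparc, a collagen-binding protein, lay between 25089 and 31814 CPM in the articular, fibroblast, growth plate, Col1a1 and hypertrophic gates and at 3565 in the stroma gate.

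Sp7 and Runx2, transcription factors required for osteoblasts, stood at 86.8 and 108 CPM in the Col1a1 gate, at 39.6 and 95 in the growth plate, 20.8 and 76.5 in the hypertrophic, 28.3 and 47.7 in the fibroblast and 4.31 and 19 in the articular gate. In the stroma gate Sp7 was at 18.8 and Runx2 at its highest, 198. Col22a1 had 211 CPM in the Col1a1 gate, 6.59 in the hypertrophic gate and none in the articular gate. The genes Bmp1, which cleaves procollagen and Dmp1, and Sgms2, a sphingomyelin synthase, stood at 276 and 481 in the Col1a1 gate.

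Over the 125 cells of the Col1a1 gate, the genes most like each member were ranked by Pearson r of log(1 + UMIs per 10000) among 2365 genes with at least 100 UMIs. Bglap was most like Bglap3 (0.83), Car3 (0.83) and Cpz (0.83), and Bglap2 like Bglap3, Car3 and Col22a1 (0.81). Alpl was most like Pth1r (0.76), Cd200 (0.64) and Omd (0.63), and Ibsp like Plod2 (0.65), Cd200 (0.63) and Pth1r (0.59). Spp1 had its closest genes further off: Wif1 (0.47), Pth1r (0.39) and Tnfrsf11b (0.38). Phex was followed by Mlip (0.72) and Prss35 (0.70), and Dmp1 by Wisp1 (0.55), Lipc (0.54) and Fbn2 (0.53), which became 0.49, 0.52 and 0.43 without the Phex-rich cell. Enpp1 was nearest to Chad (0.55), Mfge8 (0.55) and Igfbp7 (0.55), and Ank to Nt5e (0.58), Fxyd5 (0.58) and Cilp2 (0.57). The gate mixes cells of osteoblast and of articular or fibroblast markers, so these likenesses hold across that mixture, and nothing is said of shared function.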

How the data were processed

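Single-cell 10X libraries of tibial cells were processed by the authors against mm10 and the sequences of GFP, tdTomato and WPRE. The submitters' processing notes name Cell Ranger 3.1.0 and Seurat 3. Per the study, cells came from the third digestion of trabecular bone with part of the growth plate. The deposited values are raw UMI counts per gene and barcode, with no normalization, and the lowest total is 500 UMIs. Deposited counts were used as they stand, with a floor of 1600 genes and no other filter. Which annotation was counted is not given here. Coordinates were looked up by gene identifier in GENCODE M21.

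UMIs were summed over cells and divided by the group's total, with 95% intervals (scipy 1.17.1, numpy 2.4.6, Python 3.11.15). UMIs count 3' ends, so levels were not divided by transcript length. A fold called a gene at 4 (2 for the WPRE split) among genes whose UMIs in the compared groups summed to 50 or more, and a count of 0 was set at 3. Shares were thinned to 3000 UMIs over 100 draws. Blood, osteoclast and vessel groups were raw marker gates among cells outside the 6 skeletal gates. Scrublet (scanpy 1.11.5, expected rate 6%) marked 2 of 4472 barcodes and so removed almost nothing; doublets were therefore kept, and cells of more than 1 gate, including the 15 of the growth plate and Col1a1 gates, may include doublets. Fold counting and intervals were tested on simulated counts. Figures were drawn with matplotlib 3.10.9.

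The members and gene lists were chosen with earlier results of these data known, so their pattern is not independent support. The genes named are the 10 members, listed mineralization genes, and the 3 genes most like each member with at least 100 UMIs in at least 20 cells of the Col1a1 gate. 1 gene of these lists is not reported here. Exact combinations of gates, the GFP split, the Col10a1 split and the single cell were added after values were seen. Alternatives varied the gene floor, mitochondrial share, thresholds, overlap, doublets, weights, totals, reference and WPRE threshold.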

Additional observations from a re-analysis of the deposited data

Results flagged for a closer look

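The comparisons use barcodes with at least 1600 genes. In the 8092 barcodes under that floor, 7 of the members stood above the Ptprc cells at it beyond counting error. Spp1 stood at 103 CPM against 95.1, with 3477 UMIs in 888 barcodes, and Ank at 17.9 against 12.3. Ibsp had 22.1 against 4.2, with 32.8% of the UMIs in 1 barcode, Bglap 33 against 4.07, with 29.4% in 1 barcode, and Bglap2 18.6 against 2.24, with 38.5% in 1. Dmp1 had 0.562 against 0.0509, from 19 UMIs, and Phex 0.621 against 0.178, from 21. The source of these transcripts was not tested.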

How the results depend on the processing

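No paired analysis was possible because the barcodes carry no replicate number and no result comes from a test. Of 66 counts of members 4-fold higher in the Col1a1 gate under an alternative, 60 stayed within 1.5 times. The count against the growth plate gate, 3, became 6 with cells of more than 1 gate left out and 1 with each cell weighing the same. The count against the fibroblast gate, 1, became 5 with cells of more than 1 gate left out, 2 without gate cells that held a Ptprc UMI, 2 with each cell weighing the same and 4 with thresholds doubled. With cells of more than 1 gate left out, no hypertrophic cell remained, so that this comparison gave no value. The count against Ptprc cells, 9, was 9 or 10 in all alternatives.

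No log2 ratio to Ptprc cells changed sign under 124 alternatives, and 43 lay outside the main counting interval. With barcodes under 700 UMIs as reference, Bglap went from 12.94 to 5.08 and Ibsp from 9.98 to 5.55. With gate cells that hold a Ptprc UMI counted in the reference, Bglap fell to 5.92 and Ibsp to 4.77. In the WPRE split no called ratio changed sign in 63 alternatives, and Bglap ranged from 1.22 to 3.50 over them. None of these alternatives kept the Col1a1-only cells alone. In those cells Dmp1 went from 0.70 to −2.24, or 0.45 without the Phex-rich cell. Bglap, Bglap2, Ibsp, Spp1, Enpp1 and Ank kept their signs there. Thinned to 3000 UMIs, Dmp1 was seen in 10.1% and not 21.6% of Col1a1 gate cells, and Phex in 12.4% and not 24.8%. Leaving out the 6% of barcodes with the highest doublet scores, chosen after seeing that almost none were called, moved no count, and leaving out the Phex-rich cell, added likewise, took the count against the growth plate gate from 3 to 2. Depth limits Mepe, with 6 UMIs, and the 23 stroma cells.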
